A study of Mus musculus with 4 samples.

Results

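Cadherins and protocadherins were described in molar mesenchyme of the mouse embryo, taken at embryonic day 14. The members were all gene names in the 4 expression tables that are Cdh followed by a number, or that begin with Pcdh, apart from Cdh1 and Cdh5. This gave 93 of 22072 gene names, namely 22 Cdh genes, 12 protocadherins outside the gene clusters and 59 clustered protocadherins. The libraries were Msx1-/- (mutant) upper molar, Msx1+/- (control) upper molar, Msx1-/- lower molar and Msx1+/- lower molar, with 1 library in each group. All were on a mixed strain background, the Msx1 allele is not named in the labels, and the controls are heterozygous, so no library is wild type for Msx1. Mesenchyme was captured by laser from frozen head sections. Each pool held 1 genotype and 1 jaw and was drawn from 3 mutant and control pairs. A library thus stands for a pool, and no group has a second one.

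Cadherins are cell surface proteins that hold cells together through calcium-dependent contacts between their outer domains. Classical cadherins bind catenins inside the cell and so connect these contacts to actin, and the cadherins a tissue makes help to set which cells stick to each other. Protocadherins have weaker adhesion and different tails, and they are best known from the nervous system, where they take part in axon growth and in the recognition of self by neurites. In a developing tooth the epithelium is known for E-cadherin (Cdh1) and P-cadherin (Cdh3), while mesenchyme is known for cadherin-11 (Cdh11) and N-cadherin (Cdh2). Msx1 is a homeobox gene of this mesenchyme that tooth development needs.

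Values are FPKM, in which fragments are scaled to library size and transcript length, so that levels can be compared between genes. A difference is taken on log2(FPKM + 1), mutant minus control within a jaw or upper minus lower within a genotype, and a gene is called higher or lower where its size was at least 1. No difference has a replicate check, and no p-value is printed for single genes. Sequence over annotated transcripts came to between 264 and 410 megabases per library, least in the mutant lower molar. The filter kept genes averaging 1 FPKM or more over the libraries, 10535 in all, and their median genotype difference was -0.03 for upper and -0.39 for lower molars. Differences are therefore also given after rescaling by median of ratios, which brought these medians to 0.004 and 0.006. Msx1 itself stood at 126 FPKM in mutant against 170 FPKM in control upper molars and at 85.9 FPKM in mutant against 184 FPKM in control lower molars. Msx1 signal was thus present in every library, and these values do not check the Msx1-/- label, which the word mutant stands for here. All 16 listed dental mesenchyme genes passed the filter. Epithelial genes were present too, with 7 of 15 markers over the filter and Krt5 at 7.18 to 28.1 FPKM, although the E-cadherin gene Cdh1 was at or under 0.142 FPKM in each library. In pooled tissue, fewer cells of a type and less RNA per cell cannot be told apart.

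Promoter sequences of 22 members were present in the RefSeq table used here (build GRCm38.p6), in windows that run from 250 bases before to 50 bases after each start site. A set of 6 is shown because these genes carry the differences described below or serve as a level contrast. Pcdh9, Pcdh10 and Cdh12 were higher in mutant upper molars, Pcdh15 was weakly expressed and had more signal in both mutant libraries, Cdh24 was lower in mutant lower molars, and Pcdh18 was abundant and differed little. Each is written 5′ to 3′ on the strand of its gene, and capitals mark TAATTG or its reverse complement CAATTA, a core motif known to be bound by Msx1.
Pcdh9: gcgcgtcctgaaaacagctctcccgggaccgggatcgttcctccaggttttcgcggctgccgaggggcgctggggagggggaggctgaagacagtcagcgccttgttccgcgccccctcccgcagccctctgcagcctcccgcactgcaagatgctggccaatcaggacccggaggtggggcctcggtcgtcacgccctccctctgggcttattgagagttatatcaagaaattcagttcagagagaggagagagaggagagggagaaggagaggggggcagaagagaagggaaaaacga
Pcdh10: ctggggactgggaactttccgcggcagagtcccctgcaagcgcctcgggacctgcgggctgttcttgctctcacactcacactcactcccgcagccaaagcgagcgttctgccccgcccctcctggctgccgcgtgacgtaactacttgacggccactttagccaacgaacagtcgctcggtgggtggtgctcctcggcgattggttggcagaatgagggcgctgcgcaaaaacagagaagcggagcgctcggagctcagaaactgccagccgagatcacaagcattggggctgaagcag
Cdh12: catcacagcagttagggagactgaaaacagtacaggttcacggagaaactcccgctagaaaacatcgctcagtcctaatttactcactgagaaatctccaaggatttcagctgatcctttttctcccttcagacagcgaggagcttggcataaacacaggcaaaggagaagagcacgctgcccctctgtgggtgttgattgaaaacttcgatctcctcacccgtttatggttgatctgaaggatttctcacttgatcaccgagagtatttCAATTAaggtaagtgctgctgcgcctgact
Pcdh15: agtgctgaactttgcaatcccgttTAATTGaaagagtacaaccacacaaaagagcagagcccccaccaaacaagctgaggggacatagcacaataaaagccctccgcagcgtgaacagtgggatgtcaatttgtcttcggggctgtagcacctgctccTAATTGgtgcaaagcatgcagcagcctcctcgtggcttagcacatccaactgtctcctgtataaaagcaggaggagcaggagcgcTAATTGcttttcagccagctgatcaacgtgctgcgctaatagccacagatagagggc
Cdh24: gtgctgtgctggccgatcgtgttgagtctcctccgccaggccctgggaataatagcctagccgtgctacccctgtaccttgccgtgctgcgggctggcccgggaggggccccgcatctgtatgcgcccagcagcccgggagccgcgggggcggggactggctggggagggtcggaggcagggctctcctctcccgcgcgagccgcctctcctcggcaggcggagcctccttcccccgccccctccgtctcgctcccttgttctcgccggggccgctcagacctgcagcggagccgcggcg
Pcdh18: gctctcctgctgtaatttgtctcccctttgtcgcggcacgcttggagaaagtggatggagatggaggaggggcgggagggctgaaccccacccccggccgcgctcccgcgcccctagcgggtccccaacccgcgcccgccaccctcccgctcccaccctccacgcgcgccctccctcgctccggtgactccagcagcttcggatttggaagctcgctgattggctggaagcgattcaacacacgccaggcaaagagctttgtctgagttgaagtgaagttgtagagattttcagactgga

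The Pcdh9 window is chr14:93890620-93890919 on the minus strand, and a second annotated start gives a nearly identical window. Pcdh10 lies at chr3:45378148-45378447 on the plus strand and Cdh12 at chr15:21111202-21111501 on the plus strand. Pcdh15 lies at chr10:73821617-73821916 on the plus strand, Cdh24 at chr14:54641315-54641614 on the minus strand and Pcdh18 at chr3:49757267-49757566 on the minus strand. TAATTG on either strand was found 3 times in the Pcdh15 window and 1 time in that of Cdh12, at base 271 of the window, and in none of the other windows shown. Among all 25 member windows 4 held it, the others being those of Cdh20 and Cdh26, against 8.0% of 32851 windows of that length in the table. Like Pcdh15, the genes Cdh8, Cdh9, Cdh18 and Pcdh8 were under the filter with more signal in the mutant in both jaws. Their windows, not shown, held 0 matches. Cdh20 had less signal in the mutant in both jaws. The E-box CAGGTG, which Snail and Zeb factors bind, was in 5 member windows (Pcdh7, Pcdh15 and the 3 windows of Cdh7) against 20.2% of all windows, and an Egr1 motif, GCGTGGGCG, was in 0 against 0.612%. GC content was 62.3% in the Pcdh9 and Pcdh10 windows, 73.3% in that of Cdh24 and 46.7% in that of Cdh12.

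Of the 93 members, 74 reached 0.1 FPKM in at least 1 library and 36 passed the filter of a mean of at least 1 FPKM. Those 36 were 7 Cdh genes, 9 non-clustered protocadherins and 20 clustered ones. Cadherin-11 alone made up between 41.8% and 49.3% of the FPKM summed over the 34 members outside the clusters. The next most abundant of these were Pcdh18, Pcdh10, Pcdh7 and Cdh2, in that order of their means.

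**Figure D1:**
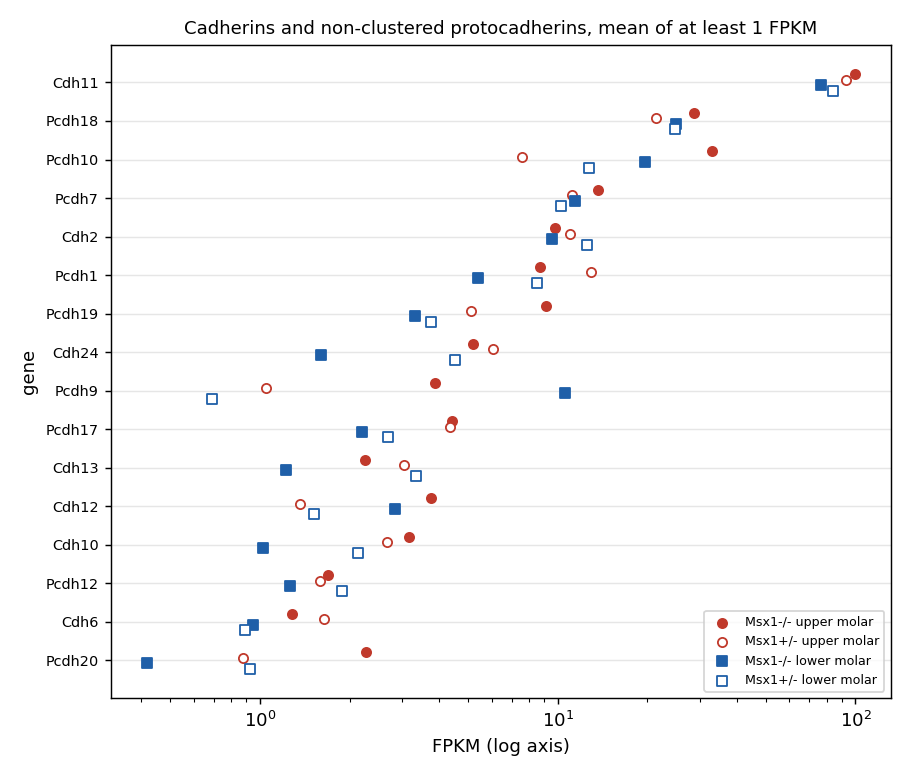
FPKM of each of the 16 cadherins and non-clustered protocadherins that passed the filter, on a log axis, with 1 point per library and genes ordered by mean. Filled symbols are Msx1-/- and open symbols Msx1+/- libraries. Cdh11 sits between 76.9 and 99.7 FPKM in all 4, whereas the filled points of Pcdh9 (3.87 and 10.6 FPKM) lie to the right of its open points (1.05 and 0.690 FPKM).

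Of the classical type I cadherins, the group that also holds E-cadherin, N-cadherin was the one that passed the filter. Cdh2 (chromosome 18, 16747386 to 16967558, mm9) had 9.79 FPKM in mutant and 11.004 FPKM in control upper molars, and 9.60 FPKM in mutant and 12.6 FPKM in control lower molars. The differences of -0.15 and -0.36 were close to the medians of all genes, and after rescaling they were -0.11 and 0.09. The placental cadherin Cdh3, the retinal cadherin Cdh4 and the muscle cadherin Cdh15 had means under 1 FPKM. Cdh3 was at 1.02 FPKM in mutant against 0.310 FPKM in control upper molars and at 0.234 against 0.163 FPKM in mutant and control lower molars.

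Type II cadherins are close relatives of the classical ones with another adhesive interface, and 5 of 12 passed the filter. Cadherin-11 (chromosome 8, 105156895 to 105309011), known as the osteoblast cadherin and widely made by mesenchyme, was the most abundant member, at 99.7 FPKM in mutant and 93.0 FPKM in control upper molars and 76.9 FPKM in mutant and 84.0 FPKM in control lower molars. Its differences were 0.10 and -0.13, or 0.14 and 0.36 after rescaling, so the main cadherin of this mesenchyme differed by well under the limit in both jaws. The ratio of Cdh11 to Cdh2 was 10.2 in mutant and 8.45 in control upper molars, and 8.01 in mutant and 6.68 in control lower molars.

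Cdh12, a type II cadherin known from brain, was higher in the mutant upper molar at 3.74 FPKM against 1.37 FPKM in control, a difference of 1.003 that lies just past the limit. In lower molars it had 2.85 FPKM in mutant and 1.52 FPKM in control, a difference of 0.61, or 0.95 after rescaling. Both mutant values lay above both control values. Cdh12 (chromosome 15, 21041207 to 21519288) lies in a run of type II genes with Cdh6, Cdh9, Cdh10 and Cdh18 on the same chromosome. Of these neighbours Cdh18 had 0.751 and 0.638 FPKM in mutant upper and lower molars against 0.340 and 0.304 FPKM in the controls, and Cdh9 had 0.599 and 0.204 against 0.129 and 0.0533 FPKM, all at low levels. Cdh6, known from neural crest and kidney, was at 1.28 FPKM in mutant and 1.64 FPKM in control upper molars and at 0.944 and 0.894 FPKM in mutant and control lower molars.

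Cdh24, a less studied type II cadherin (chromosome 14, 55250829 to 55260201), was lower in the mutant lower molar, at 1.61 FPKM against 4.51 FPKM in control. In upper molars it had 5.19 FPKM in mutant and 6.04 FPKM in control, so the mutant lower library stood alone below the other 3. The lower-molar difference was -1.08 and became -0.74 after rescaling, which ends the call. Cdh10 was at 3.18 FPKM in mutant and 2.67 FPKM in control upper molars and at 1.02 FPKM in mutant and 2.13 FPKM in control lower molars. Among atypical cadherins, Cdh13 (T-cadherin), which has a lipid anchor in place of a tail, passed the filter at 2.25 FPKM in mutant and 3.04 FPKM in control upper molars and 1.22 FPKM in mutant and 3.35 FPKM in control lower molars. Its differences were -0.31 and -0.97, or -0.28 and -0.65 rescaled, and it was not called in either jaw.

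Delta protocadherins are the non-clustered family and are split into delta-1 and delta-2 by their tails. Pcdh9, a delta-1 protocadherin known from nervous tissue (chromosome 14, 93412920 to 94287951), was the member with the largest difference. It had 3.87 FPKM in mutant and 1.05 FPKM in control upper molars, and 10.6 FPKM in mutant and 0.690 FPKM in control lower molars. Both mutant libraries were high and both controls were low, with the mutant lower molar highest. The FPKM ratio of mutant to control was 3.69 in upper and 15.3 in lower molars, and the differences were 1.25 and 2.77, or 1.26 and 3.13 after rescaling. Pcdh9 was the 1 member of 36 called in the same direction in both jaws, where 0.399% of all genes were higher and 1.59% lower in both. By mean difference it ranked 12 of 10535 genes, and by the lower-molar difference it ranked 3. Its control values averaged under 1 FPKM, so Pcdh9 passed the filter through the mutant libraries. Its ranks and its call in both jaws are therefore a description. In sequence depth its transcript was covered by 23215 bases in mutant and 6061 bases in control upper molars and by 53885 bases in mutant and 3096 bases in control lower molars.

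The other delta-1 genes were not called. Pcdh7 was at 13.7 FPKM in mutant and 11.1 FPKM in control upper molars and at 11.5 FPKM in mutant and 10.3 FPKM in control lower molars, and Pcdh1 was at 8.70 FPKM in mutant and 12.9 FPKM in control upper molars and at 5.41 FPKM in mutant and 8.51 FPKM in control lower molars. After rescaling, the differences of Pcdh7 were 0.32 and 0.60 and those of Pcdh1 were -0.48 and -0.14. Pcdh11x was at or under 0.760 FPKM in every library.

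Pcdh10, a delta-2 protocadherin known for axon outgrowth (chromosome 3, 45182320 to 45238501), was higher in the mutant upper molar, at 32.9 FPKM against 7.56 FPKM in control. In lower molars it had 19.6 FPKM in mutant and 12.7 FPKM in control. The lowest mutant value lay above the highest control value. The differences were 1.98 in upper and 0.58 in lower molars, and 2.02 and 1.05 after rescaling, so the lower-molar call turns on the scaling. All 4 annotated Pcdh10 transcripts had more signal in both mutant libraries, by ratios of 3.41 to 4.91 in upper and 1.30 to 2.50 in lower molars. These transcripts share exons, and their separate values depend on how the authors' estimate divided the reads. The shortest transcript carried most of the signal, at 20.3 FPKM in mutant and 4.14 FPKM in control upper molars and 11.8 FPKM in mutant and 9.03 FPKM in control lower molars.

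Pcdh18, the non-clustered protocadherin with the highest mean over the 4 libraries, was at 28.8 FPKM in mutant and 21.3 FPKM in control upper molars and at 25.0 FPKM in mutant and 24.9 FPKM in control lower molars. Its differences were 0.41 and 0.01, or 0.46 and 0.48 after rescaling. Pcdh17 was at 4.43 and 4.33 FPKM in mutant and control upper molars and at 2.20 and 2.69 FPKM in mutant and control lower molars. Pcdh19, an X-linked gene known for epilepsy in people, was at 9.10 FPKM in mutant and 5.11 FPKM in control upper molars and at 3.32 FPKM in mutant and 3.75 FPKM in control lower molars. Pcdh19 was thus highest in the mutant upper molar, by less than the limit in the genotype difference (0.73).

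Outside these families, Pcdh12, which endothelium is known to make, was at 1.70 FPKM in mutant and 1.60 FPKM in control upper molars and at 1.26 FPKM in mutant and 1.89 FPKM in control lower molars. The endothelial cadherin Cdh5, not a member, was likewise level at 16.5 and 18.9 FPKM in mutant and control upper molars and 17.4 and 18.1 FPKM in mutant and control lower molars. Pcdh20 was at 2.26 FPKM in mutant and 0.874 FPKM in control upper molars and at 0.416 FPKM in mutant and 0.927 FPKM in control lower molars. Its genotype differences, 0.80 and -0.44, had opposite signs in the jaws. Only the mutant upper value was above 1 FPKM, so Pcdh20 passed the filter through that library.

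**Figure D2:**
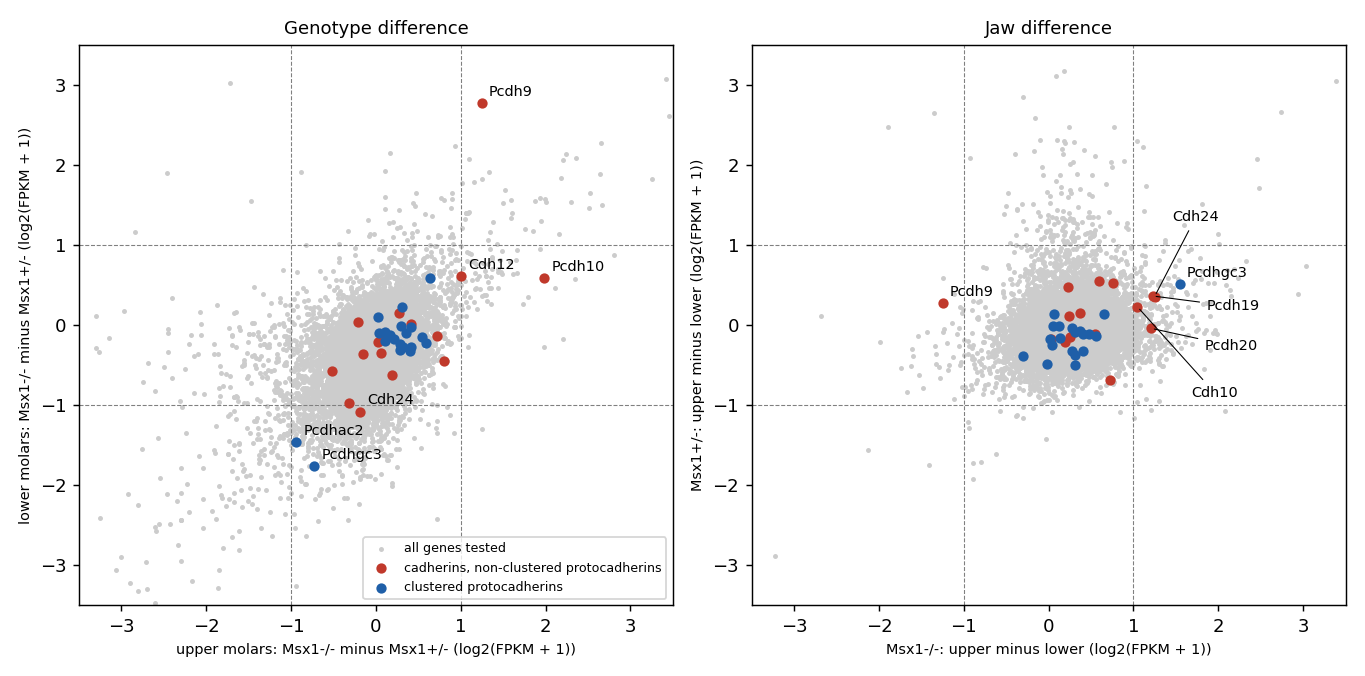
Differences in log2(FPKM + 1) for all 10535 genes (grey), cadherins and non-clustered protocadherins (red) and clustered protocadherins (blue). The left panel sets Msx1-/- minus Msx1+/- in upper molars (x) against lower molars (y), and the right panel sets upper minus lower in Msx1-/- (x) against Msx1+/- (y). Dashed lines mark a size of 1, members past a line are named, and 13 genes in the left and 7 in the right panel lie outside the axes. Pcdh9 is the member in the upper right corner of the left panel.

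Counted over the members that passed, 3 of 36 (Pcdh10, Pcdh9 and Cdh12) were higher in the mutant upper molar and 0 were lower, where 1.07% of all genes were higher and 3.27% lower. Rescaling left these same 3, where 1.17% of all genes were higher and 3.01% lower. In lower molars 1 was higher (Pcdh9) and 3 were lower (Pcdhgc3, Pcdhac2 and Cdh24), where 0.864% of all genes were higher and 9.43% lower. After rescaling, lower molars had 2 higher (Pcdh9 and Pcdh10) and 2 lower members (Pcdhgc3 and Pcdhac2), where 2.34% of all genes were higher and 3.02% lower. The median difference of the 36 was 0.28 in upper and -0.17 in lower molars, against -0.03 and -0.39 for all genes. After rescaling it was 0.30 and 0.15. These figures pool 16 members outside the clusters with 20 clustered ones, many of which share exons and so are not independent. Unscaled medians in upper and lower molars were 0.14 and -0.17 for the 16, and 0.29 and -0.17 for the 20. All 3 upper-molar calls were among the 16, and the clustered calls were Pcdhgc3 and Pcdhac2 in lower molars. Because the filter uses all 4 libraries, it can admit a gene on the strength of the genotype in which it is high, so these counts and medians are a description. A limma fit that takes both jaws together and borrows its spread from all genes called 5 members by genotype, where it called 5.55% of all genes, and 0 by jaw, where it called 0.807%. That fit used values that were not rescaled. The genotype differences of 4 members (Pcdh9, Pcdh10, Pcdh20 and Pcdhgc3) were unequal between jaws by at least 1, as were those of 6.9% of all genes. After rescaling, the upper-molar minus lower-molar change was 0.97 for Pcdh10 and 0.63 for Pcdhgc3, under the limit. For Pcdh9 and Pcdh20 it was -1.87 and 1.07. The rescaled share of all genes was not counted.

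Members under the filter include several known mainly from brain or inner ear. Cdh8, a type II cadherin of neurons, had 1.67 FPKM in mutant and 0.207 FPKM in control upper molars and 0.511 FPKM in mutant and 0.0740 FPKM in control lower molars. Pcdh15, known for the tip links of hair cells, had 0.984 FPKM in mutant and 0.121 FPKM in control upper molars and 0.891 FPKM in mutant and 0.0893 FPKM in control lower molars. In both genes each mutant library was above each control library. Pcdh8 had 0.811 FPKM in mutant and 0.0568 FPKM in control upper molars and 0.175 FPKM in mutant and 0.0628 FPKM in control lower molars. The depth behind the control values was small, with Cdh8 covered by 683 bases in control upper and 190 bases in control lower molars against 6189 and 1600 bases in the mutants. Of 17 members outside the clusters that were under the filter and above 0, 8 had more FPKM in the mutant in both jaws, as did 26.9% of all such genes. A further 4 had less in both (Cdh4, Cdh17, Cdh20 and Cdh22), as did 22.8% of all such genes. Cdh17, known from intestine and liver, was at 0.0557 and 0.0117 FPKM in mutant upper and lower molars against 0.340 and 0.237 FPKM in the controls. Cdh16 was listed at 0 in all 4 libraries, Cdh7, Cdh19, Cdh23 and Cdh26 were under 0.1 FPKM in each, and Cdh29 lay between 0.369 and 0.595 FPKM.

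**Figure D3:**
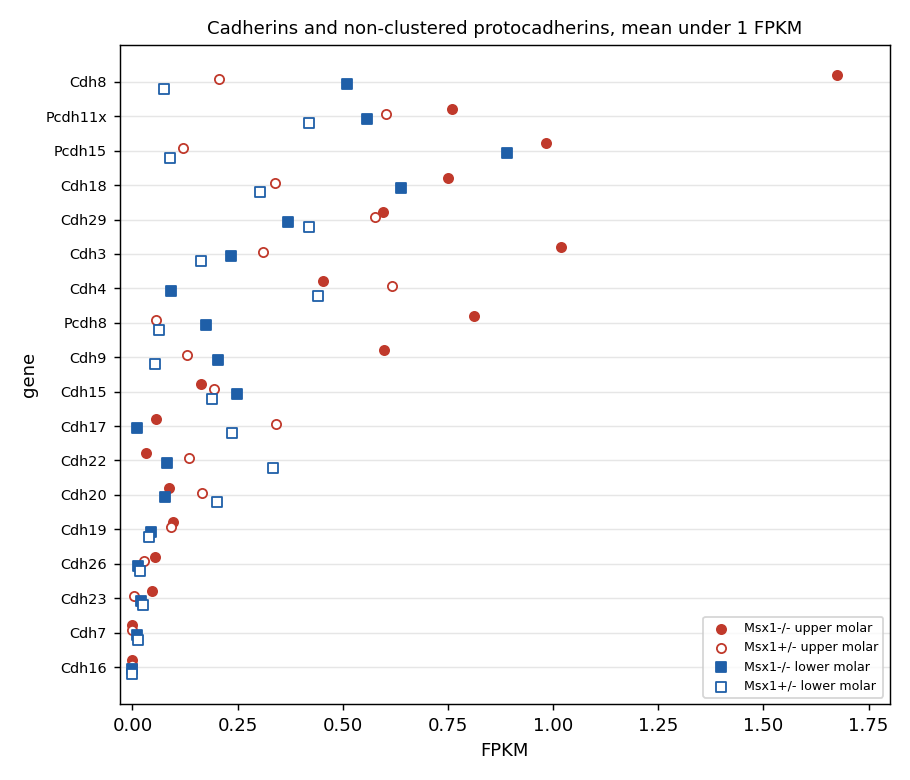
FPKM of each of the 18 cadherins and non-clustered protocadherins with a mean under 1 FPKM, on a linear axis, with 1 point per library. Filled symbols are Msx1-/- and open symbols Msx1+/- libraries. For Cdh8 and Pcdh15 both filled points lie to the right of both open points.

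Pcdh9, Cdh12, Cdh8, Pcdh15 and Cdh18 are long genes, with spans of 875, 478, 388, 828 and 438 kilobases on mm9. Pcdh10, Cdh9 and Pcdh8 also had more FPKM in the mutant in both jaws, and they span 56.2, 78.7 and 4.54 kilobases. Shares of genes lower in the mutant were not counted by span. Among all tested genes that span over 500 kilobases (82 genes), 10.98% were higher in the mutant upper and 3.66% in the mutant lower molar, against 1.07% and 0.864% of all genes. Genes of 200 to 500 kilobases (398 genes) had 4.52% and 3.02% higher. The median differences of the longest genes were 0.17 in upper and -0.13 in lower molars. Among other long members, Cdh13 (1040 kilobases) and Cdh4 (457 kilobases) had less FPKM in the mutant in both jaws, whereas Pcdh11x (616 kilobases) had more, by ratios of 1.26 and 1.33. Pcdh7 (414 kilobases) had ratios of 1.23 and 1.12. Across the 16 members outside the clusters that passed, span and difference had a Spearman rho of 0.09 in upper and 0.35 in lower molars, and across all genes -0.06 and 0.06, where genes of a library share its depth and composition.

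The clustered protocadherins lie in the alpha, beta and gamma clusters on chromosome 18. In the alpha and gamma clusters each gene has its own first exon and shares the following constant exons with its neighbours, so reads in the shared exons were divided among genes by the authors' estimate and single values are uncertain. Beta genes have no such shared exons but are similar in sequence. In the alpha cluster 1 of 15 names passed the filter, in the beta cluster 2 of 22 and in the gamma cluster 17 of 22. The sum over the gamma cluster was 59.7 FPKM in mutant and 63.9 FPKM in control upper molars and 38.9 FPKM in mutant and 58.6 FPKM in control lower molars. The beta sum was 11.2 FPKM in mutant and 7.77 FPKM in control upper molars and 8.82 FPKM in mutant and 8.62 FPKM in control lower molars. After rescaling, the gamma sum differed by -0.05 and -0.10 and the beta sum by 0.52 and 0.47.

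Within the gamma cluster, the C-type gene Pcdhgc3 (37966064 to 38001526) took the largest share and was the one called. C-type genes are distinct from the other variable genes of the cluster, and in neurons they are known to be switched on without the random choice that governs the others. Pcdhgc3 was at 20.8 FPKM in mutant and 35.2 FPKM in control upper molars and at 6.48 FPKM in mutant and 24.3 FPKM in control lower molars. Both mutant values were below both control values, and the differences were -0.73 and -1.76, or -0.68 and -1.31 rescaled. It made up 34.9% of the gamma sum in mutant and 55.1% in control upper molars, and 16.7% in mutant and 41.5% in control lower molars. Without it, the gamma sum was 38.9 FPKM in mutant and 28.7 FPKM in control upper molars and 32.4 FPKM in mutant and 34.3 FPKM in control lower molars, differences of 0.43 and -0.08, or 0.47 and 0.40 after rescaling. The next gamma genes by mean were Pcdhga3 (4.48 and 3.16 FPKM in mutant and control upper molars, 3.14 and 4.19 FPKM in mutant and control lower molars) and Pcdhgb1. Pcdhgb1 was at 3.47 FPKM in mutant and 1.87 FPKM in control upper molars and at 3.33 FPKM in mutant and 1.89 FPKM in control lower molars, with rescaled differences of 0.66 and 0.94.

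The alpha cluster was mostly its own C-type gene, Pcdhac2 (37303623 to 37347311). It made up 91.0% of the alpha sum in mutant and 97.9% in control upper molars, and 84.0% in mutant and 98.1% in control lower molars. Pcdhac2 was at 3.36 and 7.39 FPKM in mutant and control upper molars and at 2.29 and 8.07 FPKM in mutant and control lower molars. Again both mutant values lay below both control values. The differences were -0.94 and -1.46, so Pcdhac2 was called in lower molars and was just short of the limit in upper molars, and after rescaling they were -0.90 and -1.08. The other C-type gene of that cluster, Pcdhac1, was under 0.1 FPKM throughout, and the alpha sum without Pcdhac2 was at most 0.438 FPKM. That highest sum was in the mutant lower molar and was mostly Pcdha4-g (0.288 FPKM), which runs from the alpha into the gamma cluster. The C-type genes Pcdhgc4 and Pcdhgc5 were under the filter, with Pcdhgc4 at 0.664 and 1.03 FPKM in mutant and control upper molars and 0.951 and 0.776 FPKM in mutant and control lower molars. Pcdhgc5 was at 0.450 and 0.280 FPKM in mutant and control upper molars and at 0.806 and 0.472 FPKM in mutant and control lower molars. The beta genes with the highest means were Pcdhb22 (1.69 and 1.01 FPKM in mutant and control upper molars, 1.08 and 1.12 FPKM in mutant and control lower molars), Pcdhb17 and Pcdhb14.

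**Figure D4:**
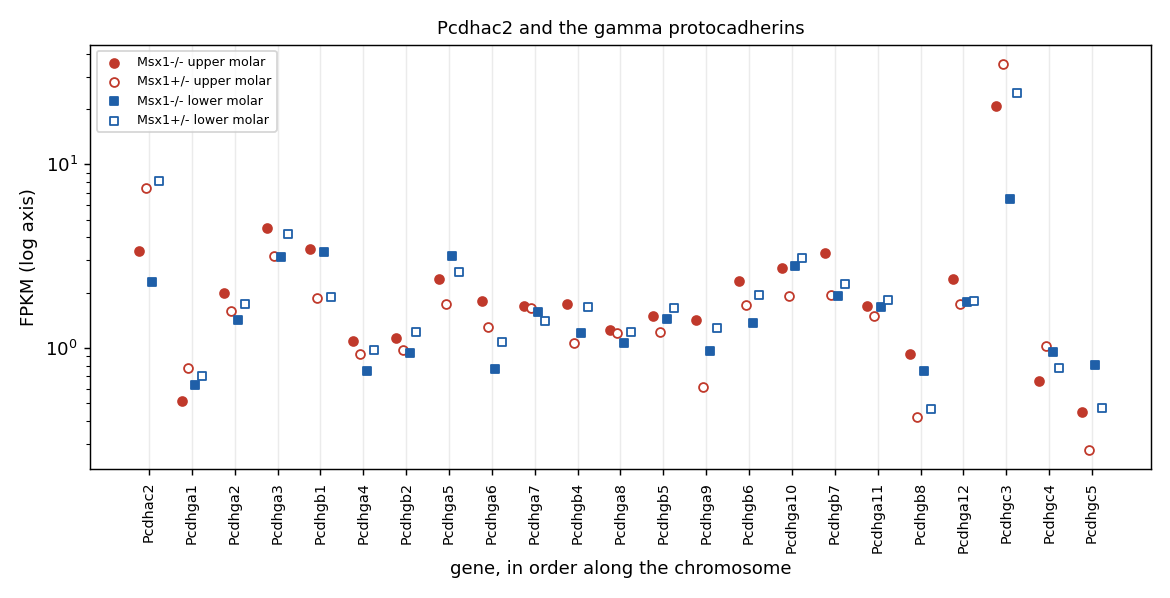
FPKM of Pcdhac2 and of the 22 gamma protocadherins in their order along the chromosome, on a log axis, with 1 point per library. Filled symbols are Msx1-/- and open symbols Msx1+/- libraries. In Pcdhac2 and Pcdhgc3 both filled points lie below both open points, and no other gamma gene reaches 5 FPKM in any library.

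The jaw comparison asked how cadherins differ between upper and lower molars of a genotype. In control molars 0 of 36 members passed the limit in either direction, where 1.48% of all genes were higher and 0.218% lower in upper molars. In mutant molars 5 members were higher in the upper jaw (Pcdhgc3, Cdh24, Pcdh19, Pcdh20 and Cdh10) and 1 was lower (Pcdh9), where 3.21% of all genes were higher and 0.408% lower. The upper minus lower differences of these 6 in mutant molars were 1.55, 1.25, 1.23, 1.20, 1.04 and -1.25 in that order. In control molars the same genes differed by 0.52, 0.35, 0.36, -0.04, 0.23 and 0.28. The median of all genes was 0.27 in the mutant and -0.08 in the control comparison. After rescaling, Pcdhgc3, Cdh24 and Pcdh20 were still higher and Pcdh9 lower in mutant upper molars (1.23, 1.01, 1.08 and -1.57), where 1.28% of all genes were higher and 0.949% lower, whereas Pcdh19 and Cdh10 were at 0.94 and 0.85. Pcdh20 passed the filter through the mutant upper library and Pcdh9 through the mutant libraries, so these calls are a description. No member was called in the same direction in both genotypes, where 0.161% of all genes were. The jaw comparisons use the same 4 libraries as the genotype comparisons and are not further evidence for them.

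Catenins and other junction proteins were counted from lists, to be read against the shares of all genes that were higher (1.07%) or lower (3.27%) in mutant upper molars and higher (0.864%) or lower (9.43%) in mutant lower molars. Of 8 tested genes among catenins and their relatives, 0 passed in upper molars and 1 was lower in mutant lower molars. That gene was vinculin, Vcl, which links catenin to actin, at 6.63 FPKM in mutant and 17.2 FPKM in control lower molars and 12.3 FPKM in mutant and 19.2 FPKM in control upper molars, with a rescaled lower-molar difference of -0.81, which ends the call. After rescaling the 1 call in lower molars was instead Pkp4, a plakophilin relative of p120 catenin, which was higher by 1.19. Pkp4 was at 17.5 and 13.2 FPKM in mutant and control upper molars and at 21.2 and 12.4 FPKM in mutant and control lower molars. Beta-catenin, Ctnnb1, was at 119 and 131 FPKM in mutant and control upper molars and at 76.3 and 148 FPKM in mutant and control lower molars, a lower-molar difference of -0.95 or -0.46 rescaled. Alpha-catenin, Ctnna1, was at 25.3 and 36.6 FPKM in mutant and control upper molars and at 22.2 and 32.2 FPKM in mutant and control lower molars. The p120 catenin gene Ctnnd1 was left out because the authors' table marks an estimate of it as failed. Of 11 desmosome genes 2 were tested, and Perp, which desmosomes of layered epithelium need, was higher in the mutant lower molar. It was at 1.34 and 0.227 FPKM in mutant and control upper molars and at 6.13 and 0.515 FPKM in mutant and control lower molars, and like Pcdh9 it was highest in the mutant lower molar. Both control values were under 1 FPKM, so Perp passed the filter through the mutant libraries.

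Of 9 tested nectins and junction scaffolds, 1 was lower in the mutant in both jaws and 0 were higher, where 1.59% of all genes were lower and 0.399% higher in both. That was the nectin-1 gene Pvrl1, a contact protein that works beside cadherins, at 1.88 FPKM in mutant and 5.98 FPKM in control upper molars and 0.639 FPKM in mutant and 2.52 FPKM in control lower molars, with differences of -1.28 and -1.10, or -1.23 and -0.85 rescaled. Among 6 tested genes of the large cadherins and their regulators, Fjx1 alone was called in both jaws, at 1.89 FPKM in mutant and 7.87 FPKM in control upper molars and 0.845 FPKM in mutant and 12.0 FPKM in control lower molars. Fjx1 is the mammalian relative of fly four-jointed, a kinase that modifies Fat and Dachsous cadherins. Fat1 and Fat4, the most abundant Fat genes, had rescaled differences of 0.56 and 0.41 in upper and 0.93 and 0.96 in lower molars. Of 5 tested proteases that cut cadherins or are related to ones that do, 0 were called by genotype, and Adam10 was at 6.46 and 6.72 FPKM in mutant and control upper molars and at 2.64 and 5.97 FPKM in mutant and control lower molars. Of 6 tested factors known to repress Cdh1, Twist2 was lower in the mutant in both jaws (3.34 against 10.4 FPKM in upper and 4.46 against 13.6 FPKM in lower molars), though by -0.99 in lower molars once rescaled. Snai1 and Twist1 were lower in the mutant lower molar, at 2.13 against 9.41 FPKM and 19.8 against 49.7 FPKM in control, and rescaling ended the call of Twist1 (-0.81) but not that of Snai1 (-1.35).

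Markers of other cells were set beside these results, with the same shares of all genes as their background. The FPKM sum of the 15 epithelial markers was 58.3 in mutant and 34.7 in control upper molars and 75.2 in mutant and 55.2 in control lower molars. Of its 7 tested genes Krt5 was higher in the mutant upper molar (21.3 against 7.18 FPKM) and Krt15 was higher in both jaws, at 3.15 and 0.865 FPKM in mutant and control upper molars and 9.09 and 1.94 FPKM in mutant and control lower molars. Cartilage markers had 4 tested genes, of which Col2a1 was higher in the mutant lower molar (7.20 against 1.98 FPKM) and Hapln1 was higher in both jaws (3.93 and 1.30 FPKM in mutant and control upper molars, 10.3 and 1.70 FPKM in mutant and control lower molars), and their sum was 32.0 and 23.6 in mutant and control upper molars and 38.9 and 24.4 in mutant and control lower molars. Pcdh9, Krt15 and Hapln1 thus had the same order of libraries at their top, with mutant lower first and mutant upper second. The part of epithelium and cartilage in the Pcdh9 values was not tested.

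The sum over 14 markers of nerve cells and Schwann cells was 23.5 in mutant and 15.3 in control upper molars and 9.57 in mutant and 9.22 in control lower molars, and the Schwann lineage factor Sox10 was at 0.565 and 0.662 FPKM in mutant and control upper molars and 0.130 and 0.421 FPKM in mutant and control lower molars. Without Gap43 the sum was 5.02 in mutant and 6.35 in control upper molars and 5.66 in mutant and 5.68 in control lower molars. Nefl made up most of this sum in the mutant lower molar. Gap43, Nefl and Nefm had more FPKM in mutant than in control lower molars. Every other marker of the list had less there, at values under 1 FPKM. Of this list 2 genes, Gap43 and Nefl, were tested, and Nefl, like Pcdh9, was highest in the mutant lower molar. Nefl was at 3.52 FPKM in the mutant lower molar and at or under 0.829 FPKM in the others. It therefore passed the filter through the mutant lower library. The part of nerve and Schwann cells in the Pcdh9 values was not tested. The muscle regulators Myod1, Myog, Myf5 and Pax7 were at most 0.0427 FPKM, and the muscle cadherin gene Cdh15 was at 0.162 to 0.248 FPKM. The pericyte list summed to 42.8 in mutant and 58.3 in control upper molars and to 20.6 in mutant and 66.7 in control lower molars, with its largest part from Pdgfrb, whose estimate the authors' tables mark as failed. The part of these cells in the low Cdh13 value of the mutant lower molar was not tested. The macrophage sum was 35.2 and 24.2 in mutant and control upper molars and 44.2 and 35.7 in mutant and control lower molars. Of 7 tested bone markers, Ibsp and Ifitm5 were higher in the mutant in both jaws and Spp1 was lower in both. Mutant and control Spp1 values were 0.0217 and 5.70 FPKM in upper and 0.0213 and 6.92 FPKM in lower molars. Of 16 dental mesenchyme genes, 0 were higher in either jaw and 9 were lower in the mutant lower molar. The 9 include Msx1 itself. After rescaling, Msx1, Dlx1, Twist1, Sdc1 and Tnc were under the limit there, at -0.61, -0.58, -0.81, -0.76 and -0.60. Dlx2, Prrx2, Runx2 and Fgf3 were lower in both jaws, before and after rescaling. In both jaws 0.399% of all genes were higher and 1.59% lower.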

How the data were processed

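The submitters' processing notes name mm9 as genome build, Bowtie 0.12.7 and TopHat 1.4.1. The deposited files hold, per the file headers, a Cufflinks-style FPKM value and a coverage signal for each RefSeq transcript, made by the authors, and no Cufflinks version was found in the labels. The labels do not say that counting used strand. From these, transcript FPKM was summed per gene name with pandas 2.3.3. Genes with a failed estimate in any library (66) and small RNA names (717) were left out, and the 10535 genes that averaged 1 FPKM or more were kept. Covered bases are coverage times transcript length. Start positions were raised by 1 to count from 1. Median-of-ratios factors were taken over the genes kept, and promoter sequences came from RefSeq on GRCm38.p6, whose coordinates were not mixed with mm9.

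With 1 library per group the main results carry no test. A limma 3.58.1 fit of all kept genes with additive genotype and jaw terms, checked on simulated data, was run as an alternative. All 16 Cdh and non-clustered Pcdh genes over the filter are named, clustered genes mainly by sums, and partner genes by lists. The members and the lists (170 of 172 partner and marker symbols matched) were chosen with earlier results of these data known.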

Additional observations from a re-analysis of the deposited data

Results flagged for a closer look

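For 3 members the genotype difference was unequal between jaws by at least 1, and either it or the jaw difference had opposite signs. The change given is the upper-molar minus the lower-molar genotype difference, and it was not tested, because each value rests on 4 single libraries. Pcdh9 had a genotype difference of 1.25 in upper and 2.77 in lower molars, a change of -1.53, and its upper minus lower difference was -1.25 in mutant and 0.28 in control molars. For Pcdh10 the change was 1.3999, or 0.97 after rescaling, with upper minus lower differences of 0.72 in mutant and -0.68 in control molars. Pcdh20 had genotype differences of 0.80 in upper and -0.44 in lower molars, a change of 1.24. Pcdh20 passed the filter through the mutant upper library and Pcdh9 through the mutant libraries.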

How the results depend on the processing

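The count of members called in both jaws was 1 (Pcdh9). It was 2 with any of the 3 rescalings, which added Pcdh10, and 2 with a pseudocount of 0.1, which added Pcdhac2. It was 0 with a pseudocount of 5, where the upper-molar difference of Pcdh9 was 0.55, and 0 with a 5 FPKM minimum, which leaves Pcdh9 out and keeps 9 members. In upper molars the genotype count of 3 became 6 with a pseudocount of 0.1, and 1 with a pseudocount of 5 or a 5 FPKM minimum. In lower molars the count of 4 became 2 with a pseudocount of 5 and 2 with a 5 FPKM minimum. The mutant jaw count of 6 became 1 with a pseudocount of 5 and 2 with a 5 FPKM minimum. The other counts were within 1.5 times their value, and the control jaw count was 0 in every setting run. No difference of a named member that passed the limit changed sign in any of these settings.

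The limma fit, with Benjamini-Hochberg adjustment over 10535 genes, called 5 members by genotype at an adjusted p under 0.05, where it called 5.55% of all genes. They were Pcdh9, Pcdhac2, Pcdh10, Pcdhgc3 and Cdh12. Pcdh9 was under 1 FPKM on average in the controls and so entered the fit through the mutant libraries. By jaw it called 0 members, 6 at an unadjusted p under 0.05. This fit has 1 residual degree of freedom, takes the jaws as replicates of the genotype and borrows its spread from all genes, so a gene that differs between jaws is not given its own larger error. No paired analysis was possible, because the pairs were pooled into 1 library per group and the labels carry no replicate numbers to pair by. The jaw term of this fit is its only block. Its input was not rescaled, so the lower-molar median difference of -0.39 over all genes is part of its genotype term. Low members are limited by depth, and the tables hold no read counts from which to compute counting error.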
